A study of Rattus norvegicus with 10 samples.

Results

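Ppp1r1b, Adora2a, Rgs9, Drd2, Rasd2, Pde10a, Rarb, Gng7 and Syndig1l are 9 genes that serve as markers of the striatum, the forebrain nucleus that lies in front of and lateral to the hippocampus. They were taken by name from a table of 17168 genes, and all 9 were found there and passed the filter on low counts. RNA from the left hippocampus was sequenced in 10 male rats at an age of 11 months. All 10 rats were TgF-344AD animals (genotype Tg-AD), a model of Alzheimer's disease in which human transgenes of familial disease are driven by the mouse prion promoter. The 5 untreated rats ate plain rodent chow, and the 5 RG2833 rats ate the same chow with 750 mg of RG2833 per kg. RG2833 inhibits the histone deacetylases HDAC1 and HDAC3. It was given for 6 months from 5 months of age, and the title and treatment labels were followed although 1 sentence of the design text names ibudilast. Rats without the transgenes were not analysed here. Each label describes a single rat, and the libraries held from 15118203 to 18533520 expected counts in total, which are RSEM's estimates of reads per gene. Levels are given as CPM, the counts per 1e6 of the library total after TMM scaling (trimmed mean of M-values). They are compared between libraries for 1 gene at a time, not between genes.

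Most neurons of the striatum are medium spiny neurons, GABAergic projection cells that read dopamine and adenosine through cyclic AMP. In the indirect pathway class, the dopamine receptor Drd2 lowers cyclic AMP and the adenosine receptor Adora2a raises it. Ppp1r1b encodes DARPP-32, which becomes an inhibitor of protein phosphatase 1 when protein kinase A phosphorylates it, Pde10a breaks down cyclic nucleotides, and Gng7 is a G protein gamma subunit that works with the striatal stimulatory G protein. Rgs9 shortens G protein signals, Rasd2 (Rhes) is a small GTPase, Rarb is a retinoic acid receptor, and Syndig1l is a transmembrane protein related to the synapse factor Syndig1. Several of these genes are also transcribed at lower levels in cortex and hippocampus.

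Promoter windows are shown for 3 members, since the results turn on how they differ between libraries: Drd2, which had the widest range of those with a window, Rasd2, which had an intermediate one, and Rarb, which had the narrowest. RefSeq windows of the GRCr8 build, from 250 bases before to 50 bases after a gene's start, were matched by symbol for 6 of the 9 members. The build of the deposited files is rn6, so these coordinates belong to GRCr8 only. Capitals mark the motif GGGCGG, searched on both strands, in Drd2 (chr8:58605153-58605452, plus strand) and Rasd2 (chr19:13599778-13600077, plus strand). In Rarb (chr15:11336142-11336441, plus strand) they mark a direct repeat, 2 copies of GTTCA with 6 bases between them, the arrangement of a retinoic acid response element.
Drd2: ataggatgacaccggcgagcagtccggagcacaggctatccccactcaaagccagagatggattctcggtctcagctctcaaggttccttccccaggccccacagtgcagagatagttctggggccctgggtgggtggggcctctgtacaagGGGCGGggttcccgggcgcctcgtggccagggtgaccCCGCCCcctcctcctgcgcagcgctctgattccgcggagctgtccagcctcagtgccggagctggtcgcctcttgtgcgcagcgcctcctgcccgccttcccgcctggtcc
Rasd2: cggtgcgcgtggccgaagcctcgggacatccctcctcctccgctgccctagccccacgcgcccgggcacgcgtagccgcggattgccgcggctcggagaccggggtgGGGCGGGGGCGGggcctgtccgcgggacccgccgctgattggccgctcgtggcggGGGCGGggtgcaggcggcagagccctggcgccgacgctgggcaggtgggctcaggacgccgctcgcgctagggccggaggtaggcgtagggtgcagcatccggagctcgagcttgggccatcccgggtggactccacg
Rarb: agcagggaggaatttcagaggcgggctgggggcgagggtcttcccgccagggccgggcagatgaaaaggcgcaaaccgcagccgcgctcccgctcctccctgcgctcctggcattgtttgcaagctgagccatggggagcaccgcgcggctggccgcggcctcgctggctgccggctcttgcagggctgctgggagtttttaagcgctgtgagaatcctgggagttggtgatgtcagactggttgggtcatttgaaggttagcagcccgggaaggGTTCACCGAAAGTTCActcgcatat
Drd2 holds GGGCGG 1 time on each strand, and Rasd2 holds it 3 times on the printed strand, where 2 of the copies adjoin each other. Of 33469 windows of 300 bases, 33.1% hold GGGCGG on either strand. The direct repeat lies at bases 276 to 291 of the Rarb window, and 0.418% of all windows hold that repeat on either strand. No printed window holds both motifs, since Rarb has 0 copies of GGGCGG on either strand and Drd2 and Rasd2 have 0 direct repeats. These matches describe letters and were not tested as sites.

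The 9 genes did not vary as 1 group. From the lowest to the highest of the 10 libraries, Drd2 differed 3.99-fold and Syndig1l 4.21-fold. Ppp1r1b, Adora2a, Rgs9, Rasd2 and Pde10a differed 1.79-fold to 2.15-fold, Gng7 1.58-fold and Rarb 1.37-fold. The SD of log2 CPM over the 10 libraries was 0.72 for Drd2 and 0.69 for Syndig1l, against a median of 0.19 over the 12161 genes tested. These were the 2 of 9 members with an SD above 0.5, as were 9.28% of all genes tested. It was 0.18 for Gng7 and 0.17 for Rarb, below that median, and between 0.23 and 0.34 for the other 5.

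None of the 9 genes passed the test between RG2833 and untreated rats. With edgeR's quasi-likelihood test and Benjamini-Hochberg adjustment over all genes tested, 0 of 9 members had an adjusted p under 0.05, as had 0% of all genes. At an unadjusted p under 0.05 the count was 0 of 9, against 5.66% of all genes, and DESeq2 gave 0 of 9 members at either threshold. The groups overlapped for each of the 9, while they stood apart for 1% of all genes. The fitted log2 fold change was above 0 for 8 of 9 members, as for 46.5% of all genes, with a median of 0.12 beside -0.01 over all genes. In bulk tissue, a change in the number of cells of a type and a change in RNA per cell cannot be told apart.

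**Figure D1:**
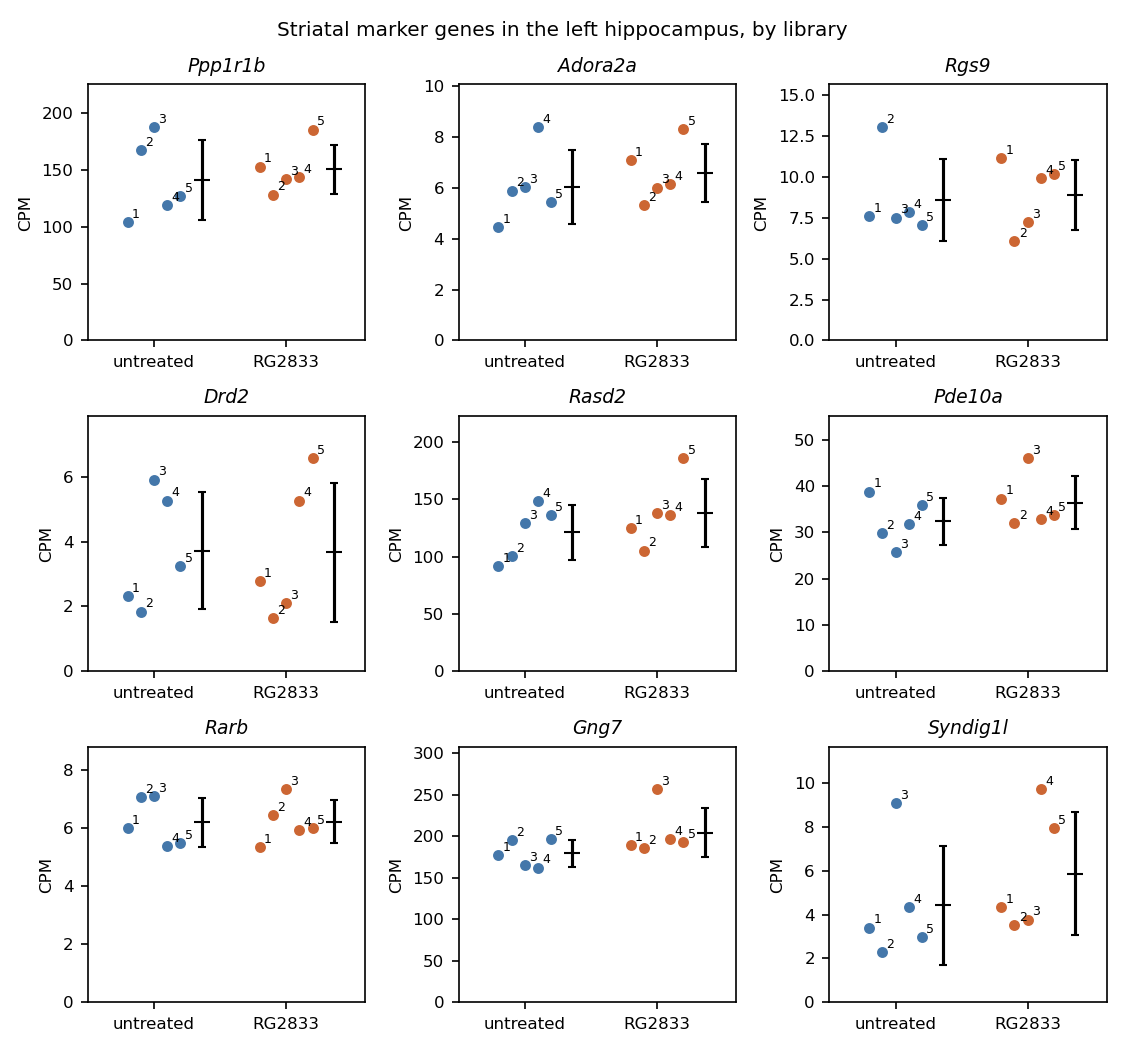
Level of each of the 9 genes in CPM (vertical axes, from 0) in the 5 untreated (blue) and 5 RG2833 (orange) libraries; small numbers are replicate numbers, and black marks are the mean and SD. The groups overlap for each gene, and Drd2 and Syndig1l show the widest spread within both groups.

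Among the receptors, Drd2 had low counts and a wide spread that was alike in both groups. Its level in untreated replicates 1 to 5 was 2.31, 1.84, 5.91, 5.26 and 3.26 CPM. In RG2833 replicates 1 to 5 it was 2.77, 1.65, 2.11, 5.26 and 6.57 CPM. Untreated replicates 3 and 4 and RG2833 replicates 4 and 5 thus held the 4 highest values, and the groups covered almost the same range. The group means were 3.72 ± 1.80 CPM untreated and 3.67 ± 2.14 CPM under RG2833 (SD, n = 5 each). The log2 fold change was -0.02 (SE 0.44, 95% interval -0.99 to 0.95; edgeR adjusted p = 0.997), and its sign turned when single libraries were left out (range -0.33 to 0.21). The counting intervals of its lowest and highest libraries did not overlap. The lowest library, with 29 counts, had a 95% Wilson interval of 1.15 to 2.36 CPM and the highest, with 95 counts, one of 5.37 to 8.03 CPM. These intervals hold for counting error alone, because no molecular identifiers show which reads came from 1 molecule.

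Adora2a, the receptor that opposes Drd2 in the same neurons, had a narrower range. Untreated replicates 1 to 5 were at 4.44, 5.89, 6.03, 8.38 and 5.43 CPM. RG2833 replicates 1 to 5 were at 7.10, 5.34, 6.01, 6.14 and 8.30 CPM. Untreated replicate 4 and RG2833 replicate 5 were the highest, both of which were also high in Drd2, while untreated replicate 3 was high in Drd2 but near the middle for Adora2a. Means were 6.03 ± 1.45 and 6.57 ± 1.15 CPM (SD, n = 5 each), with a log2 fold change of 0.12 (SE 0.18, 95% interval -0.27 to 0.52; edgeR adjusted p = 0.953). It was 0.03 without untreated replicate 1 or without RG2833 replicate 5, and 0.27 without untreated replicate 4.

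Gng7, the gamma subunit, was higher in all 5 RG2833 libraries than the untreated mean, but the groups overlapped. Its untreated levels were 178, 195, 165, 162 and 196 CPM in replicates 1 to 5. Under RG2833 they were 189, 186, 257, 196 and 193 CPM. RG2833 replicate 3 stood well above the other 9 libraries, which lay between 162 and 196 CPM. The means were 179 ± 16.1 and 204 ± 29.5 CPM (SD, n = 5 each). The log2 fold change was 0.19 (SE 0.10, 95% interval -0.04 to 0.41), with an unadjusted p of 0.0912 and an edgeR adjusted p of 0.841. Without RG2833 replicate 3 it was 0.09.

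Rgs9, the G protein signal terminator that Gnb5 stabilizes, had a different order of libraries. Its levels were 7.61, 13.1, 7.52, 7.83 and 7.05 CPM in untreated replicates 1 to 5, and 11.2, 6.07, 7.22, 9.95 and 10.2 CPM in RG2833 replicates 1 to 5. The 2 highest libraries, untreated replicate 2 and RG2833 replicate 1, were also the 2 highest for all 11 genes of the choroid plexus list. The summed level of that list reached 8234 and 9613 CPM in them. Ttr, the choroid plexus transport protein, was at 6925 and 8186 CPM in these libraries and at 3.11 to 236 CPM in the other 8. Of all genes tested, 8.26% had the same 2 highest libraries, and of the other 8 members 0 did. In the other 8 libraries Rgs9 ran from 6.07 to 10.2 CPM, and the log2 fold change there was 0.14 (edgeR adjusted p = 0.978), against 0.05 (SE 0.21, 95% interval -0.43 to 0.52; edgeR adjusted p = 0.994) over all 10. The part of choroid plexus RNA in the Rgs9 level was not tested. The mean of Gnb5 was 38.3 ± 4.63 CPM without and 38.6 ± 3.85 CPM with the drug (SD, n = 5 each), and its log2 fold change was 0.01 (SE 0.10; edgeR adjusted p = 0.996).

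Ppp1r1b, the phosphatase inhibitor, differed 1.80-fold between the lowest and the highest library. The levels of untreated replicates 1 to 5 were 105, 168, 188, 119 and 127 CPM. Those of RG2833 replicates 1 to 5 were 153, 129, 142, 144 and 186 CPM. Untreated replicate 3 and RG2833 replicate 5 were highest, and the untreated range enclosed the RG2833 range. With 1812 counts or more per library, the counting intervals of the lowest library (99.8 to 109 CPM) and the highest (181 to 195 CPM) were far apart. Means were 141 ± 35.0 and 151 ± 21.5 CPM (SD, n = 5 each), and the log2 fold change was 0.09 (SE 0.16, 95% interval -0.27 to 0.45; edgeR adjusted p = 0.965). Leaving out untreated replicate 1 gave 0.0012, leaving out untreated replicate 3 gave 0.22, and leaving out RG2833 replicate 5 gave 0.0085.

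Rasd2, the striatal GTPase, was at 91.5, 100.2, 129, 149 and 136 CPM in untreated replicates 1 to 5. The RG2833 libraries held 125, 105, 138, 137 and 186 CPM. RG2833 replicate 5 was the highest library, and 4 of 5 RG2833 values lay above the untreated mean. Means were 121 ± 24.3 and 138 ± 29.7 CPM (SD, n = 5 each), with a log2 fold change of 0.19 (SE 0.17, 95% interval -0.18 to 0.56; edgeR adjusted p = 0.919). The log2 fold change was 0.06 without RG2833 replicate 5, 0.10 without untreated replicate 1 and 0.12 without untreated replicate 2.

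Pde10a, which hydrolyses both cyclic AMP and cyclic GMP, was at 38.8, 29.8, 25.7, 31.8 and 35.9 CPM in untreated replicates 1 to 5. In RG2833 replicates 1 to 5 it was at 37.3, 32.0, 46.03, 32.9 and 33.7 CPM. As for Gng7, RG2833 replicate 3 was the highest. Untreated replicate 3, which held the highest Ppp1r1b value, held the lowest Pde10a value. Means were 32.4 ± 5.12 and 36.4 ± 5.74 CPM (SD, n = 5 each), and the log2 fold change was 0.17 (SE 0.13, 95% interval -0.12 to 0.45; edgeR adjusted p = 0.904). It was 0.07 without RG2833 replicate 3 and 0.10 without untreated replicate 3.

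Syndig1l had the widest range of the 9, from 45 counts in untreated replicate 2 to 155 in RG2833 replicate 4. Its untreated levels were 3.40, 2.30, 9.07, 4.35 and 2.98 CPM in replicates 1 to 5. Under RG2833 they were 4.32, 3.52, 3.77, 9.70 and 7.95 CPM. Untreated replicate 3 and RG2833 replicates 4 and 5 stood apart from the other 7 libraries, which lay at 4.35 CPM or lower. The means were 4.42 ± 2.70 and 5.85 ± 2.80 CPM (SD, n = 5 each). The log2 fold change of 0.41 had an SE of 0.41 and a 95% interval from -0.50 to 1.32 (edgeR adjusted p = 0.921). It was 0.84 without untreated replicate 3, with an unadjusted p of 0.0321 and an edgeR adjusted p of 0.326, and 0.15 without RG2833 replicate 4.

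Rarb, the retinoic acid receptor, varied least. Untreated replicates 1 to 5 were at 6.00, 7.07, 7.10, 5.39 and 5.48 CPM, and RG2833 replicates 1 to 5 at 5.35, 6.47, 7.35, 5.95 and 6.01 CPM. Its highest level was 1.37 times its lowest, and the counting intervals of those libraries overlapped (4.32 to 6.64 and 6.13 to 8.82 CPM). Its counts ran from 83 to 138 per library, and whether its spread exceeds counting error was not tested. The mean was 6.21 ± 0.83 CPM untreated and 6.23 ± 0.74 CPM under RG2833 (SD, n = 5 each), with a log2 fold change of 0.00 (SE 0.12, 95% interval -0.27 to 0.28; edgeR adjusted p = 0.997).

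**Figure D2:**
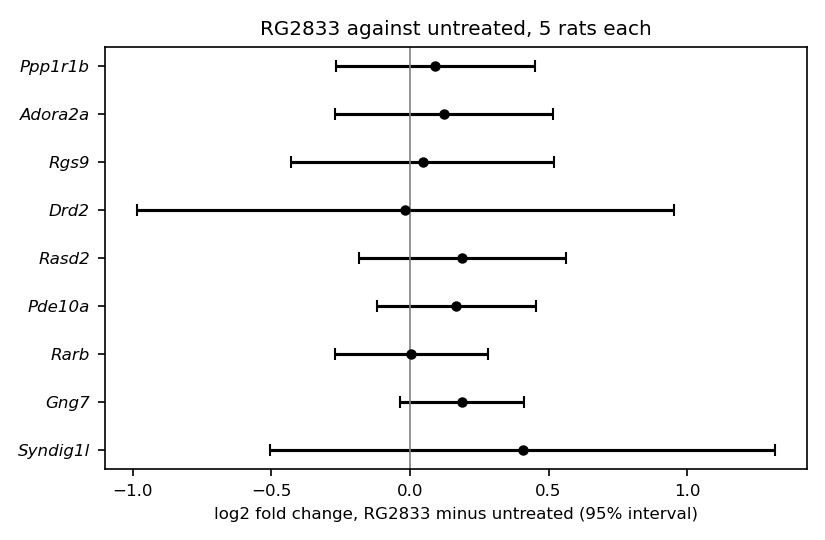
Log2 fold change of each of the 9 genes, RG2833 minus untreated (horizontal axis), from edgeR's quasi-likelihood fit with 5 rats in each group; bars are 95% intervals. Each interval includes 0, and those of Drd2 and Syndig1l are the widest.

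As folds, the 95% intervals ran from 0.976 to 1.33 for Gng7, from 0.829 to 1.21 for Rarb and from 0.921 to 1.37 for Pde10a. They ran from 0.505 to 1.93 for Drd2 and from 0.705 to 2.49 for Syndig1l, the 2 genes for which the data bound a change least.

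Other medium spiny neuron genes were split over the libraries in which Drd2 was high: some were highest there and some lowest. Gpr52, a receptor of indirect pathway neurons, was at 5.13 and 4.35 CPM in untreated replicates 3 and 4 and at 4.19 and 4.15 CPM in RG2833 replicates 4 and 5, and between 1.02 and 1.61 CPM in the other 6. Foxp2, a transcription factor of medium spiny neurons, was at 6.38 and 7.65 CPM and at 5.88 and 8.85 CPM in the same libraries, and between 0.77 and 3.09 CPM in the other 6. Of the 19 tested genes of a list of 23 further medium spiny neuron genes, 7 had the same 4 highest libraries as Drd2, among them Drd1, Gpr6, Gpr52, Foxp2, Meis2 and Arpp21. Over all other genes tested the share was 4.27%. In contrast, 3 of the 19 had these 4 libraries as their lowest, namely Pdyn, Bcl11b and Lrrc10b, as had 7.63% of all other genes tested. Bcl11b, a transcription factor of medium spiny neurons that dentate granule cells and cortical neurons also express, ran from 65.2 CPM in untreated replicate 3 to 202 CPM in RG2833 replicate 3. Lrrc10b was at 7.10, 66.0, 38.2 and 27.4 CPM in untreated replicates 3 and 4 and RG2833 replicates 4 and 5, and between 81.3 and 122 CPM in the other 6. Syndig1l was the only other member with the same 4 highest libraries as Drd2, and the lowest of its 4 values there, 4.35 CPM, was next to 4.32 CPM in RG2833 replicate 1.

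The neocortex list was split as well. Of its 8 tested genes, 3 had the same 4 highest libraries, among them the transcription factors Tbr1 and Cux2. Cux2 was at 141, 59.9, 92.4 and 106 CPM in untreated replicates 3 and 4 and RG2833 replicates 4 and 5, and between 28.3 and 41.0 CPM in the other 6. Fezf2, a factor of deep layer neurons, was lowest in untreated replicate 3 and highest in RG2833 replicate 5. Rspo1 was lowest in untreated replicate 4, and Lamp5 in RG2833 replicate 5. The summed level of all 8 genes of that list ran from 151 to 300 CPM in untreated and from 173 to 299 CPM in RG2833 libraries. In each group the same 2 libraries held the highest sums, and no gene of the list was at 0. Of the other region and cell type lists, the same 4 libraries were highest for 1 of 7 interneuron genes, Vip, and for none of the thalamus, cholinergic, dentate, CA1, CA3, choroid plexus or oligodendrocyte genes. The summed CA3 list was lowest in these same 4 libraries, at 417 and 1220 CPM in untreated replicates 3 and 4 and 879 and 643 CPM in RG2833 replicates 4 and 5, against 1277 to 1625 CPM in the other 6. So was the summed dentate list, at 119, 174, 166 and 161 CPM against 191 to 296 CPM. The summed CA1 list was not, at 638, 437, 658 and 751 CPM against 506 to 1110 CPM. These sums follow the most abundant genes. Gene by gene, the 4 libraries were the lowest for 1 of 4 tested genes in each of these 3 lists. The genes were Nptx1 (CA3), C1ql2 (dentate) and Fibcd1 (CA1), beside 7.63% of all other genes tested. The part of neocortical, striatal or hippocampal tissue in these levels was not tested.

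Of the 23 further medium spiny neuron genes, 22 were found and 19 passed the filter on low counts, as did 70.8% of all genes. Isl1, Sh3rf2 and Ido1 did not pass it. Drd1, the dopamine receptor of the direct pathway, had 62 to 157 counts per library. Isl1, a transcription factor of striatal development, had at most 5 counts in a library, and Ido1 at most 1. Six3, a transcription factor of indirect pathway neurons, was at 4.97, 2.80 and 4.71 CPM in untreated replicates 2, 3 and 4 and at 2.39 CPM in RG2833 replicate 1, and at 0.76 CPM or lower in the other 6. RG2833 replicates 4 and 5, both high in Drd2 and Gpr52, had 0.19 and 0 CPM of Six3. Which cells the reads of the 9 genes came from was not tested.

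**Figure D3:**
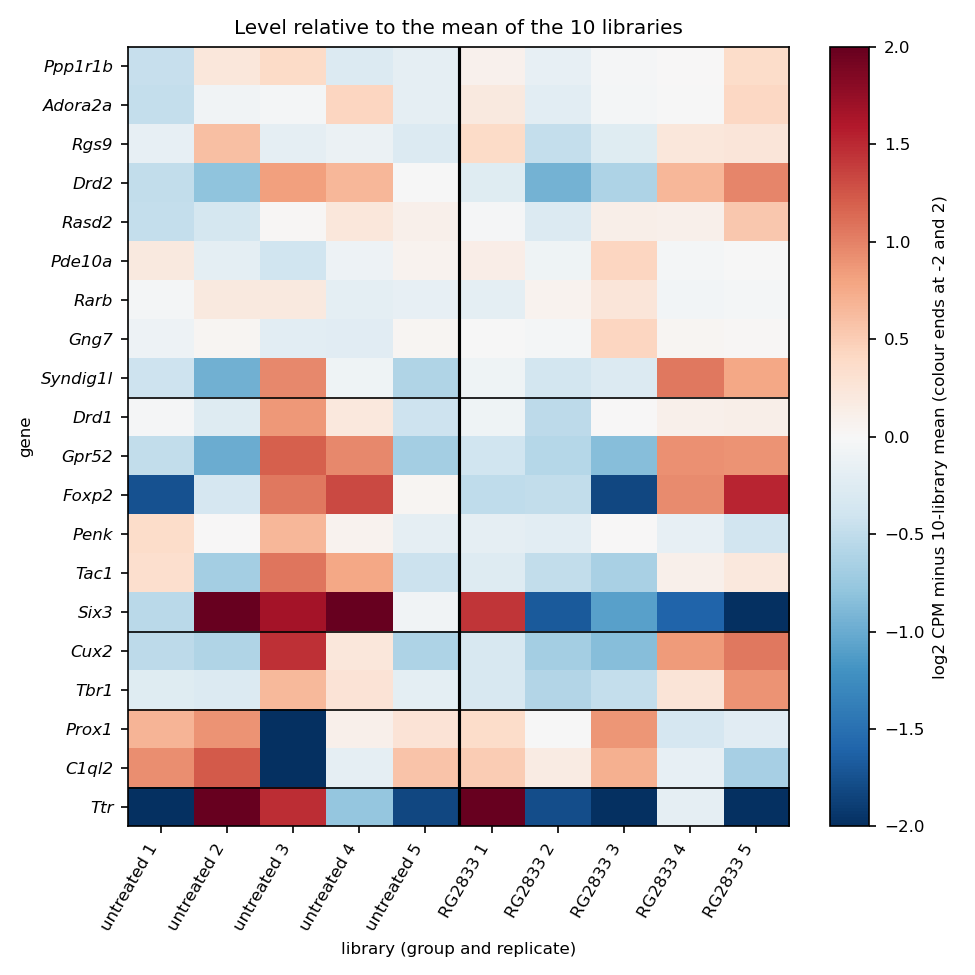
Colour shows log2 CPM minus the mean of the 10 libraries (scale ends at -2 and 2) for the 9 members, further striatal genes, neocortical genes, dentate genes and Ttr (rows) in each library (columns). The rows beyond the 9 members are a selection from longer lists. Fezf2, Lamp5, Rspo1, Calb1, Pdyn, Bcl11b and Lrrc10b, which had other orders of libraries, are not shown. Drd2, Gpr52, Foxp2, Cux2 and Tbr1 are high in untreated replicates 3 and 4 and RG2833 replicates 4 and 5, whereas Rarb is nearly even, as is Gng7 apart from RG2833 replicate 3.

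The dentate markers Prox1 and C1ql2 were lowest in untreated replicate 3, a library high in Drd2, whereas Calb1 of the same list was highest there, at 90.6 CPM. Prox1, the dentate granule cell factor, was at 4.30 CPM in untreated replicate 3 and at 21.5 to 50.4 CPM in the other 9. C1ql2, a mossy fibre protein, was at 7.10 CPM there and at 38.2 to 142 CPM elsewhere. Pdyn, the dynorphin precursor of both striatal direct pathway neurons and dentate granule cells, was at 16.6 CPM in that library and at 52.9 to 102 CPM in the others. Some markers of the hippocampal lists were at or near 0: Tdo2 had no count in any library, Iyd at most 2, Spink8 at most 3 and Lct at most 8.

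Pairs of members were compared over the 10 libraries as Pearson correlations of log2 CPM. Of 36 pairs, 4 had r above 0.7 and 14 had r below 0, and 0 passed after Benjamini-Hochberg adjustment over the 36. The highest was Drd2 with Syndig1l, with r = 0.82 (permutation p = 0.00447, adjusted 0.104) and Spearman's rho = 0.72 (permutation p = 0.0236, adjusted 0.279); without the 2 libraries farthest from the Drd2 median r was 0.70. Adora2a and Rasd2 had r = 0.80 (permutation p = 0.00577, adjusted 0.104) and rho = 0.75 (permutation p = 0.0170, adjusted 0.279), and r = 0.62 without the 2 farthest. Drd2 and Rasd2 had r = 0.76 (permutation p = 0.0112, adjusted 0.135) and rho = 0.66 (permutation p = 0.0441, adjusted 0.317), and r = 0.71 without the 2 farthest. Pde10a and Gng7 had r = 0.72 (permutation p = 0.0266, adjusted 0.240) and rho = 0.44 (permutation p = 0.204, adjusted 0.775), but r was -0.02 without the 2 libraries farthest from the Pde10a median, so that relation rests on them.

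**Figure D4:**
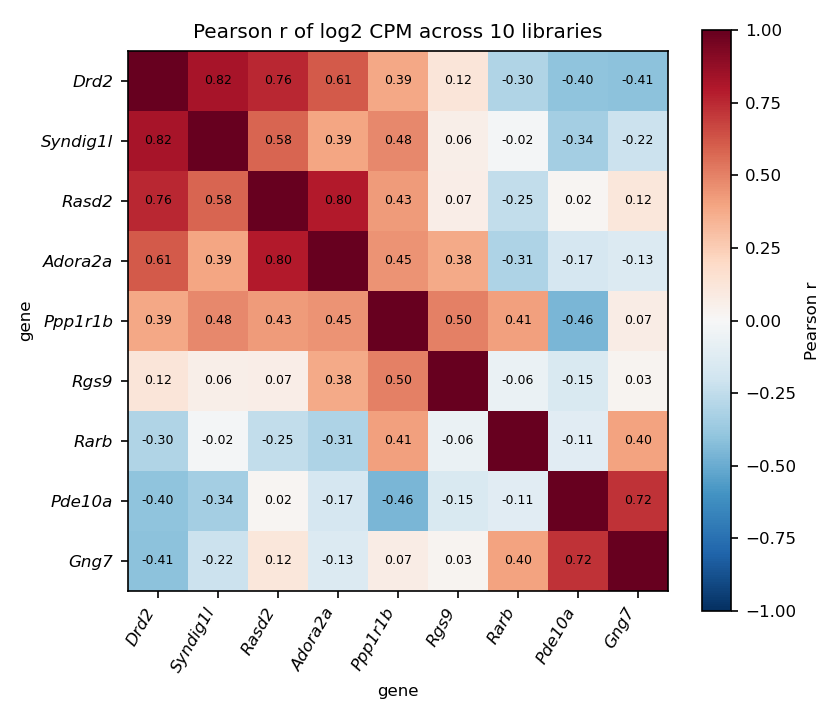
Pearson r of log2 CPM over the 10 libraries for each of the 36 pairs of the 9 genes (rows and columns; colour from -1 to 1, values printed). Drd2, Syndig1l, Rasd2 and Adora2a are positive with one another, while Pde10a and Gng7 are positive with each other and negative with Drd2 and Syndig1l.

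The genes most like each member were found among 11704 named genes tested, by Pearson r over the 10 libraries, as a description without a test. For Drd2 they included Cdk18 (r = 0.97) and Cdh7 (0.95). For Syndig1l they were Polr2m, Ptprf and S100a1 (r of 0.98 each). Rgs9 was most like Aga (0.93), Dcn (0.92), the connective tissue proteoglycan decorin, and Slc25a37 (0.92). Ppp1r1b was nearest to Tnfrsf1a (0.97), Nudt1 (0.94) and Nr1h3 (0.94), and Adora2a to Hbp1 (0.97), Mier1 (0.92) and Oser1 (0.92). Pde10a was nearest to Gnaq (0.96), a G protein alpha subunit, and Dlgap1 (0.95), a postsynaptic scaffold protein. Rasd2 had Ptar1 (0.94), Stxbp3 (0.90) and Sdk2 (0.90), Gng7 had Sec14l1 (0.89), Ubr4 (0.88) and Camta2 (0.87), and Rarb had Nek6 (0.86), Dhh (0.84) and Nol12 (0.83). Spearman's rho with Gng7 was 0.72 for Sec14l1, 0.84 for Ubr4 and 0.45 for Camta2.

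The further medium spiny neuron genes showed no call either. Of the 19 tested, 7 had a log2 fold change above 0 and 12 below, 0 had an edgeR adjusted p under 0.05, and the median was -0.05. Penk and Six3, 2 of the 19, had an unadjusted p under 0.05 (5.66% of all genes), both with a log2 fold change below 0. Penk, the enkephalin precursor of indirect pathway neurons, was at 46.4, 36.1, 57.4, 38.0 and 31.6 CPM in untreated replicates 1 to 5 and at 31.9, 31.0, 36.3, 32.0 and 27.6 CPM in RG2833 replicates 1 to 5. Its untreated values reached higher, and the groups overlapped (log2 fold change -0.40, SE 0.15; edgeR adjusted p = 0.841). The log2 fold change of Six3, whose 4 higher libraries are named above, was -2.16 (SE 0.93; edgeR adjusted p = 0.841). Tac1, the substance P precursor, was at 5.53 ± 2.76 and 3.76 ± 0.99 CPM, Drd1 at 5.66 ± 2.22 and 4.88 ± 0.82 CPM, and Pdyn at 69.5 ± 35.6 and 74.1 ± 16.1 CPM (SD, n = 5 each), with edgeR adjusted p from 0.852 to 0.991.

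Among 29 partners in dopamine, adenosine and cyclic AMP signalling, 26 were tested, 10 higher and 16 lower in RG2833 with a median log2 fold change of -0.02, and 0 had an edgeR adjusted p under 0.05. Drd5 and Prkar1b, 2 of the 26, had an unadjusted p under 0.05 (5.66% of all genes). Drd5, the second D1-class receptor, was at 0.58, 0.15, 0.42, 0.31 and 0.92 CPM in untreated replicates 1 to 5 and at 1.29, 1.08, 1.41, 0.81 and 1.11 CPM in RG2833 replicates 1 to 5, from 3 to 22 counts per library. Its RG2833 values were mostly higher, with 1 overlap, and the log2 fold change of 1.25 (SE 0.38) had an edgeR adjusted p of 0.841. Prkar1b, a regulatory subunit of protein kinase A, had means of 571 ± 33.3 CPM untreated and 501 ± 38.3 CPM under RG2833 (SD, n = 5 each), and a log2 fold change of -0.19 (SE 0.07; edgeR adjusted p = 0.841). Gnal, the striatal stimulatory alpha subunit that pairs with Gng7, averaged 40.3 ± 6.48 and 36.6 ± 4.34 CPM (SD, n = 5 each), with a log2 fold change of -0.14 (SE 0.12; edgeR adjusted p = 0.913). Adcy5, the main striatal adenylyl cyclase, averaged 176 ± 64.1 and 200.2 ± 48.8 CPM (SD, n = 5 each), with a log2 fold change of 0.18 (SE 0.23; edgeR adjusted p = 0.946).

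The retinoid genes around Rarb differed widely in how much they varied. Of 13 such genes 12 were tested, 4 higher and 8 lower in RG2833 with a median log2 fold change of -0.10, and 0 had an adjusted or an unadjusted p under 0.05, the latter beside 5.66% of all genes. The median SD of log2 CPM over these 12 was 0.50, against 0.17 for Rarb. Aldh1a2, which makes retinoic acid in the meninges, ran from 2.61 to 37.4 CPM, and the retinoic acid carrier Crabp2 from 0.51 to 9.22 CPM. Crabp2 and the retinol transporter Stra6 had untreated replicate 2 and RG2833 replicate 1 as their 2 highest libraries, those rich in choroid plexus genes. The receptor Rxrb ran from 57.5 to 68.8 CPM, with an SD of log2 CPM of 0.095 against 0.17 for Rarb. Rxrb had 918 to 1339 counts per library and Rarb 83 to 138, so counting error weighs more on Rarb. Its part in the difference was not tested.

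Of 58 tested genes of the region and cell type lists, 6 had an unadjusted p under 0.05, where 5.66% of all genes had one, each with an edgeR adjusted p of 0.841. Rorb and Rspo1 of the neocortex list had log2 fold changes of 0.47 (SE 0.21) and 0.60 (SE 0.23), while the median of the list was 0.01. Pvalb and Sst of the interneuron list had 0.37 (SE 0.11) and -0.50 (SE 0.20), and Slc5a7, the choline transporter, had -1.39 (SE 0.52). Mpped1 of the CA1 list had 0.47 (SE 0.18). The median log2 fold change was 0.43 over 4 CA1 genes, -0.03 over 4 dentate genes and -0.09 over 4 CA3 genes, beside -0.01 over all genes, and 0 of these 12 had an adjusted p under 0.05.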

How the data were processed

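The deposited table of expected counts per gene was made with RSEM 1.2.15 and Bowtie2 2.1.0 on rn6, per the submitters' processing notes; the annotation and any filter are not given in the sources used here. Libraries were strand-specific mRNA, per the labels. A second deposited table holds the TMM-normalized signal (CPM); 100% of its values were whole multiples of 1 read within 0.05, 99.9% of the recovered reads equalled the rounded counts, and the test on them called 0 genes. CPM recomputed here differed from it by at most 2.90% for the 9 genes.

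Rounded expected counts went into edgeR 4.0.16 (R 4.3.3): filterByExpr (minimum count 10, total 15) kept 12161 genes, scaling was TMM, and RG2833 was compared with untreated across all genes by the robust quasi-likelihood F test with Benjamini-Hochberg adjustment (threshold 0.05). Standard errors came from the F statistic. Log2 CPM used a prior count of 2, and correlations used 100000 permutations. The fitting code was also run on simulated counts with known changes, and that outcome is not reported here. The lowest chi-square per gene over 45 library pairs was 7.38, so no library was counted as a copy.

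The members and lists were chosen with earlier results of these data known. The rule names the 9 members, Drd1, Penk, Tac1, Pdyn, Gnal, Adcy5, Drd5 and Gnb5, list genes at an unadjusted p under 0.05, and the 3 genes most like each member; a few genes under it are not reported here; genes named for their order over libraries or as tissue markers were chosen after their values were seen. Alternatives were other scalings, filters and tools (DESeq2 1.42.0, limma 3.58.1), a replicate block, and libraries left out.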

Additional observations from a re-analysis of the deposited data

Results flagged for a closer look

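A library was singled out where, on the log2 CPM scale, the distance to its nearest neighbour in the same group was more than 0.71 of the span of that group. This held in 2 of 18 cases (9 genes in each group), and chance alone gives about 0.9. Rgs9 in untreated replicate 2 stood above its group by 0.83 of the span, at 13.1 CPM against 7.05 to 7.83 CPM; Ttr was at 6925 CPM in that library, and its part was not tested. Gng7 in RG2833 replicate 3 stood above its group by 0.834 of the span, at 257 CPM against 186 to 196 CPM.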

How the results depend on the processing

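Over 20 alternatives, 0 members reached an adjusted p under 0.05. DESeq2 called 7 genes in the whole table at an adjusted p under 0.05, where edgeR called 0 (688 at an unadjusted p under 0.05). Leaving out single libraries gave 0 to 1 members at an unadjusted p under 0.05, the 1 being Syndig1l without untreated replicate 3; the number of genes at that threshold was then 1732, and it was 375 without RG2833 replicate 4 and 424 without RG2833 replicate 5. The median log2 fold change of the members stayed within 0.03 to 0.19. Of 90 member values from the alternatives other than single omissions, 2 changed sign: Rarb with upper-quartile factors (-0.0025) and Rgs9 with the 4 libraries of highest neocortex sums left out (-0.18; untreated replicates 3 and 4, RG2833 replicates 4 and 5), an alternative added after seeing the data. Of 90 values with 1 library left out, 13 changed sign. These were log2 fold changes of Drd2, which ran from -0.33 to 0.21, of Rgs9, from -0.048 to 0.24, and of Rarb, from -0.061 to 0.058. The replicate block gave a median of 0.14 for the members, 0 called genes and 401 at an unadjusted p under 0.05. Deviations of same-numbered libraries from their group means had r from -0.49 to -0.03, and 0 libraries correlated best with their own number. No likeness by number was thus seen, and whether the numbers share a batch or an order of handling was not tested. Of the members, Drd2, Rarb, Syndig1l and Adora2a had at least 1 library under 100 counts each, where counting error weighs most.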
